A study of Mus musculus with 9 samples.

Results

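Gene expression outside the cytoskeleton was compared between late and early mouse ovarian surface epithelial (MOSE) cells. The 3 MOSE-E and 3 MOSE-L arrays were compared. A member was a gene named alone by a probe set with a signal over 500 on at least 1 of them. Cytoskeletal genes that the study tabulated in its main text were left out, whereas its longer supplementary lists were not used. Members were 7669 of the 7767 genes over that signal, and 18194 genes were on the array in all. The other 98 were cytoskeletal genes of the tables in the main text. The tables list genes that had differed between the stages, so that leaving them out used that difference, and 16 of the 98 were called higher and 64 lower by the test used here. No difference between stages entered the rule for members among the other genes, although the rule was set with earlier results of these data known. At the edge of the filter, Gda reached 500.1 and Gorasp1 500.2 on their brightest array and were kept, whereas Cmtm5 reached 499.9 and Fyco1 499.5 and were left out.

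MOSE cells come from the ovarian surface epithelium of C57BL/6 mice and became malignant with continued passage, with no added oncogene. MOSE-E cells (passages 13, 14 and 15) are labelled non-malignant and MOSE-L cells (passages 136, 142 and 143) malignant, and all were kept in the same high glucose medium with serum, insulin, transferrin and selenite. The 3 arrays of a stage were hybridised with RNA from 3 passages of heterogeneous cultures of this 1 cell model, so that p-values measured the spread between passages and not between mice. A further 3 arrays of intermediate cells (MOSE-I, passages 63, 71 and 73) entered the same fit.

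The ovarian surface epithelium is a mesothelium-like layer that rests on a basement membrane and repairs itself after ovulation. Its cells keep epithelial keratins together with mesenchymal traits, and they secrete collagens, laminins and proteases. Secreted ligands, their receptors, the signalling proteins behind the receptors and the transcription factors at the end of the chain determine how such cells respond to their surroundings, and the metabolic enzymes supply lipid, nucleotides and reducing power.

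Most markers of the labelled cell type were measured. Of 21 markers of ovarian surface epithelium and mesothelium, 17 gave a signal over 500 on at least 1 of the 6 arrays. Their summed signal ran from 110261 to 119943 in MOSE-E and from 85064 to 102228 in MOSE-L. Krt18, Upk3b, Wt1 and Msln were bright in both stages, whereas Calb2 stayed under 100 on every array, and 6 of the 21, among them Krt7 and Cdh1, were called lower in MOSE-L. Of 7 granulosa markers measured 1 (Gja1) was over 500, and of 5 oviduct markers none was. Of 5 theca and steroidogenic markers 1, Star, was over 500, and the sum of the 5 was 128 to 334 in MOSE-E and 659 to 2105 in MOSE-L. Star was called higher, with 4.13, 14.1 and 20.8 in MOSE-E and 417, 84.7 and 1628 in MOSE-L. The enzymes Cyp17a1, Cyp11a1 and Hsd3b1 did not exceed 119. Nr5a1 stayed under 500 and was not tested. Its signals were 18, 105.5 and 82.8 in MOSE-E and 415.7, 336.7 and 416.5 in MOSE-L, so that it was higher on every late array, as Star was. Of 9 leukocyte markers 1 (Cd14) was over 500 and of 7 endothelial markers none was, and the defining leukocyte marker Ptprc did not exceed 51.9. Of 10 fibroblast markers, 5 were over 500 and their sum was 52298 to 126069 in MOSE-E and 37259 to 48894 in MOSE-L. Members of that list went both ways, since Col1a1 and Col1a2 were called lower and Dcn higher. Of 7 smooth muscle markers 5 were over 500, with sums of 34039 to 95787 and of 1671 to 2752. In such cultures, fewer cells of a type and less RNA per cell cannot be told apart. The correlation of log2 signals between arrays of a stage was 0.951 to 0.986 in MOSE-E and 0.885 to 0.932 in MOSE-L. The third MOSE-L array stood farthest from its stage and its Actb signal at the 3′ end was 1.83 times that at the 5′ end, against 1.12 to 1.45 times on the other arrays. The first MOSE-E array correlated with the others of its stage at 0.951 and 0.955, and those correlated with each other at 0.986. The part of RNA quality was not tested.

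Genes were called higher or lower with limma on log2(signal + 50), where the adjusted p was 0.05 or less and the log2 change was 1 (2-fold) or more in size. Changes are MOSE-L minus MOSE-E on that scale, which understates the change of dim genes. Among all 7767 tested genes, 8.36% were called higher and 7.53% lower, and the 3 signals of one stage lay wholly above those of the other for 45%. Among the 7669 members, 633 were called higher and 521 lower. Over 500 in both stages were 6241 members, and 311 of them were called higher and 306 lower. The other called genes had passed the filter through 1 stage. Counts given below for genes over 500 in both stages are to be set beside 311 and 306 of 6241. The median log2 change of all members was 0.04. When each of the 6 arrays was left out in turn, 363 of the higher and 289 of the lower calls were made every time. Genes given below beyond the largest changes, chosen to fill out a family, were picked after their values were seen.

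Calls were spread unevenly over the 5 classes of genes that were listed. These lists were written by hand with earlier results of these arrays known. The shares below are therefore a description, and the part of that choice in them was not tested. Among 186 secreted genes, 43 (23.1%) were called higher and 44 (23.7%) lower. Among 241 surface genes, 61 (25.3%) were called higher and 33 (13.7%) lower. The metabolic class, with 552 genes, held 108 higher calls (19.6%) and 30 lower calls (5.43%). The 395 signalling genes held 43 (10.9%) and 41 (10.4%), and the 214 transcription factors 25 (11.7%) and 28 (13.1%), both nearer to the share in all genes. Of 6081 genes in none of the classes, 5.81% were called higher and 5.67% lower. Many called genes had passed the filter through 1 stage. Those over 500 in both stages were 17 of the 43 secreted, 27 of the 61 surface and 64 of the 108 metabolic higher calls. They were 16 of the 43 signalling and 9 of the 25 transcription factor higher calls. Of the lower calls they were 25, 12, 21, 31 and 8, in the same order of classes. The median log2 change was 0.36 in the surface class and 0.35 in the metabolic class, and lay between -0.03 and 0.11 in the other classes. Without the second or the third MOSE-E array, 71 and 69 metabolic genes were called higher, and without the third, 25 signalling genes were called lower. No other count of a class moved by more than 1.5 times when 1 array was left out.

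**Figure D1:**
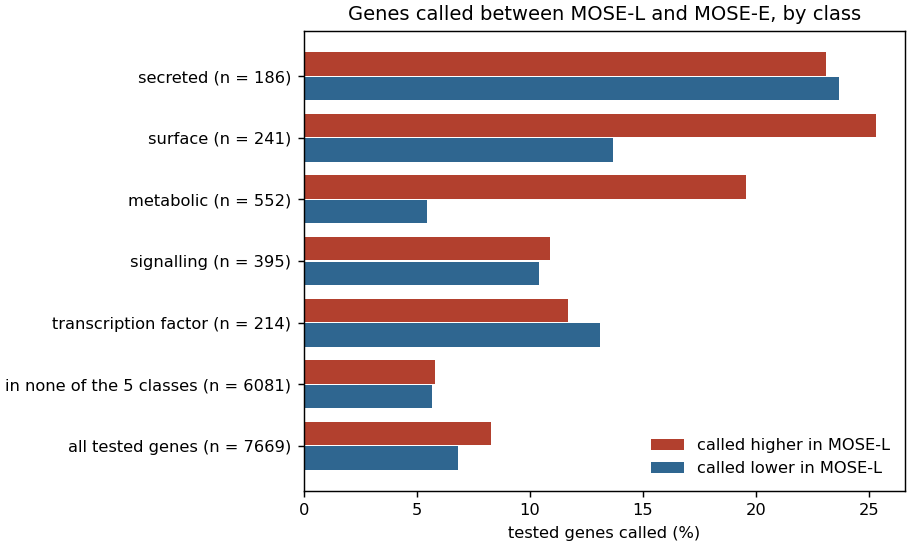
Share of tested genes called higher (red) or lower (blue) in MOSE-L than in MOSE-E, in percent, for the 5 classes, for genes in no class and for all members, with the number tested. Secreted genes were called in both directions at about equal shares, whereas metabolic genes were called higher in 19.6% and lower in 5.43%. The classes were listed by hand with earlier results of these arrays known.

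Structural matrix proteins held the largest falls among secreted genes. Of 17 collagens over the filter, 10 were called lower and none higher, with a median log2 change of -1.72, and without 1 array 7 to 11 were called lower. Of the 17, 12 were over 500 in both stages, and 5 of those were called lower, whereas the other 5 were over 500 in MOSE-E alone. The fibrillar chains Col1a2 and Col1a1 were joined by the basement membrane chains: the signal of Col4a1 was 13914, 30110.0 and 30768 on the MOSE-E arrays and 1562, 2510.2 and 3186 on the MOSE-L arrays. Col4a1 fell on all 3 late arrays well below the lowest early array (log2 change of -3.31 ± 0.35 (SE), adjusted p = 0.00016). Col8a1, a short-chain collagen, had signals of 1481, 6088 and 5128 on the MOSE-E arrays and 114, 59.9 and 67.1 on the MOSE-L arrays (log2 change of -4.83 ± 0.58 (SE), adjusted p = 0.00033). The first MOSE-E array was the lowest of its stage for these chains, and the stages did not overlap. For all 10 collagens called lower, the first MOSE-E array was not the highest of its stage, and for 8 of them the second was. The summed fibroblast markers, which include Col1a1, Col1a2 and Col3a1 but also Dcn, which was called higher, and the summed smooth muscle markers were lower in MOSE-L as given above, and their part in these falls was not tested.

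Laminins, nidogens and other matrix glycoproteins followed with 10 of 24 called lower and 3 higher. Nid1 and Nid2 link laminin to collagen IV in the basement membrane. Nid2 gave 703, 1649 and 1403 on the MOSE-E arrays and 61.9, 25.1 and 7.06 on the MOSE-L arrays (log2 change of -3.97 ± 0.40 (SE), adjusted p = 0.00011), and Nid1 gave 4101, 9706 and 7663 in MOSE-E and 66.8, 62.2 and 70.2 in MOSE-L, so that both nidogens were dim on every late array. Tnc, a matrix protein of remodelling tissue, gave 2536, 8878 and 9306 in MOSE-E and 149, 157 and 285 in MOSE-L (log2 change of -4.65 ± 0.48 (SE), adjusted p = 0.00014). The 3 that rose were Dcn, a small proteoglycan, Emilin2 and Ecm1. Dcn was already bright in MOSE-E and reached 19342, 21035 and 27205 in MOSE-L from 3752, 4537 and 6646 (log2 change of 2.19 ± 0.50 (SE), adjusted p = 0.0099).

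Among secreted proteases, 6 of 21 were called lower and 6 higher. Prss23, a serine protease, fell from 31368, 41308 and 38826 to 3035, 2971 and 2628 (log2 change of -3.66 ± 0.30 (SE), adjusted p = 3.2e-05), with little spread in either stage. Mmp2, a gelatinase, and Adamts5, an aggrecanase, were also called lower, at log2 changes of -3.73 and -2.84. The related Adamts9 went the other way, with 101.1, 144 and 204 on the MOSE-E arrays and 1450.2, 1994 and 1706 on the MOSE-L arrays (log2 change of 3.17 ± 0.38 (SE), adjusted p = 0.00032). Adamts4, Mmp11 and Plat, the tissue plasminogen activator, were called higher at 1.63, 2.34 and 1.74. Of 12 protease inhibitors, Serpinb1a fell the most, from 964, 1080.2 and 1291 to 154, 82.5 and 252 (log2 change of -2.52 ± 0.32 (SE), adjusted p = 0.00047).

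Related secreted ligands went opposite ways in several cases. Vegfc and Vegfd both act on the lymphatic receptor Flt4. Vegfc rose from 71.0, 48.0 and 57.5 to 502, 905 and 797 (log2 change of 2.82 ± 0.26 (SE), adjusted p = 6.6e-05), whereas Vegfd gave 725, 686 and 924 on the MOSE-E arrays and 105, 176 and 112 on the MOSE-L arrays (log2 change of -2.21 ± 0.24 (SE), adjusted p = 0.00018). Flt4 itself was called higher, at 391, 201 and 272 in MOSE-E and 1411, 2276 and 1242 in MOSE-L. The activin subunits differed in the same manner. Inhbb had signals of 49.9, 164 and 128 on the MOSE-E arrays and 1074, 1480.5 and 1458 on the MOSE-L arrays (log2 change of 3.14 ± 0.34 (SE), adjusted p = 0.00017), and Inhba had 1065, 4872 and 4696 on the MOSE-E arrays and 256, 687 and 579.5 on the MOSE-L arrays (log2 change of -2.51 ± 0.53 (SE), adjusted p = 0.0072). Bmp2, a bone morphogenetic protein, and Grem1, which binds and blocks such proteins, were both called higher. Bmp2 rose from 3.92, 43.0 and 6.20 to 751, 697 and 441 (log2 change of 3.34 ± 0.63 (SE), adjusted p = 0.0041) and Grem1 from 111, 31.2 and 158 to 711, 2479 and 1912 (log2 change of 3.48 ± 0.47 (SE), adjusted p = 0.0007). All 3 late arrays lay above all 3 early arrays for both genes. Btc, a ligand of the EGF receptor family, gave 302, 86.3 and 132 on the MOSE-E arrays and 1721, 5667 and 1897 on the MOSE-L arrays (log2 change of 3.71 ± 0.44 (SE), adjusted p = 0.0003), and Tgfa, another such ligand, was called higher at a log2 change of 1.73. Of 15 ligands of the VEGF, PDGF, HGF and angiopoietin group, 5 were called higher and 2 lower. The count of 5 was 2 without the third MOSE-L array and 3 without the first or the second MOSE-E array.

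Cytokines and guidance cues showed single large changes. Il16, a cytokine that attracts T cells, had signals of 8.14, 12.9 and 24.7 on the MOSE-E arrays and 754, 1486 and 789.7 on the MOSE-L arrays (log2 change of 3.96 ± 0.43 (SE), adjusted p = 0.00018). Il1rn, the antagonist of the interleukin 1 receptor, rose from 126, 81.5 and 65.5 to 1995, 1838 and 442, with the third late array lowest of its stage but above every early array (log2 change of 3.16 ± 0.48 (SE), adjusted p = 0.0014). Of 7 chemokines over the filter, Ccl5, Cxcl1 and Cxcl16 were called higher and the monocyte attractants Ccl2 and Ccl7 lower, of which 1 was called without the second or the third MOSE-E array or the first MOSE-L array. Ccl2 varied widely in MOSE-E, with 841, 3838 and 7938 on the MOSE-E arrays and 281, 465 and 421 on the MOSE-L arrays (log2 change of -2.81 ± 0.62 (SE), adjusted p = 0.0088), and its stages did not overlap. Slit2, a guidance cue, gave 2269, 6198 and 6008 on the MOSE-E arrays and 132, 124 and 125 on the MOSE-L arrays (log2 change of -4.65 ± 0.37 (SE), adjusted p = 2.4e-05). Sema3c, a secreted semaphorin, went from 4738, 4012 and 4333 to 19482, 25749 and 24704 (log2 change of 2.40 ± 0.24 (SE), adjusted p = 0.00013). The late signals of Slit2 were nearly level and far below the lowest early signal, and those of Sema3c all lay above the highest early signal.

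Several secreted proteins known from plasma or from the cornified envelope were among the largest rises. Cp, the copper-binding ferroxidase ceruloplasmin, gave 309, 445 and 693 on the MOSE-E arrays and 3742, 14936 and 9896 on the MOSE-L arrays (log2 change of 4.02 ± 0.43 (SE), adjusted p = 0.00016). Of its 7 probe sets, 6 were called higher and none lower. Masp1, a protease of the lectin pathway of complement, rose from 37.3, 28.9 and 28.2 to 603, 1036 and 1106 (log2 change of 3.52 ± 0.33 (SE), adjusted p = 6.6e-05). Sprr1a, a cornified envelope precursor, was near-constant in MOSE-E, with 234, 218 and 235, and reached 11104, 17207 and 14494 in MOSE-L. Clu, an extracellular chaperone, went from 519.8, 852 and 1014 to 11395, 18868 and 31628, highest on the third late array. Angptl7 was called higher (log2 change of 3.30 ± 0.76 (SE), adjusted p = 0.011) although its late signals ran from 303 to 4359, and the highest early signal was 238. Nppb, a natriuretic peptide, and the protease inhibitor homologues Ctla2a and Ctla2b were called lower, at -2.69, -3.19 and -1.69. Fgf21 illustrates a change that did not pass. Its signals were 97.3, 228 and 192 on the MOSE-E arrays and 447, 142 and 5177 on the MOSE-L arrays, so that 1 late array carried the difference (log2 change 1.89, 95% confidence interval -0.14 to 3.91, adjusted p = 0.15 by limma).

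**Figure D2:**
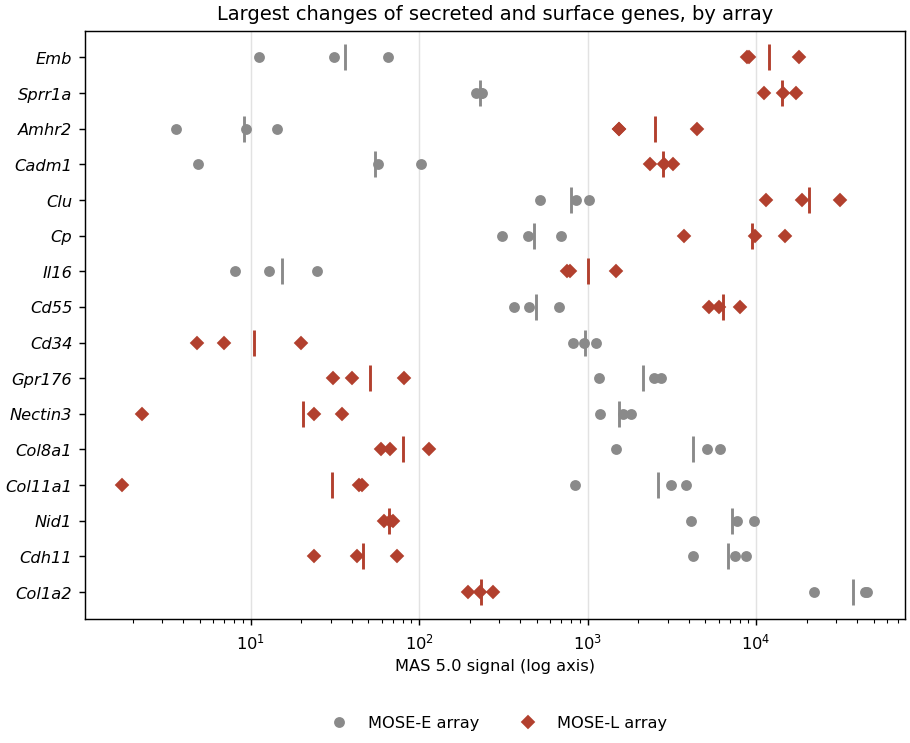
MAS 5.0 signals on a log axis for the secreted and surface genes with the largest changes, with 3 MOSE-E arrays (grey circles) and 3 MOSE-L arrays (red diamonds), and vertical marks at the mean of each stage. The 8 genes at the top were higher and the 8 at the bottom lower on all 3 MOSE-L arrays, and Col1a2 was at 22129, 44516 and 45779.9 on the MOSE-E arrays and at 231, 195 and 277 on the MOSE-L arrays.

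At the cell surface, adhesion molecules changed in both directions. Of 38 junction and immunoglobulin-like adhesion molecules, 14 were called higher and 4 lower, and of the 22 over 500 in both stages 4 and 1. Emb, a partner of monocarboxylate transporters, and Cadm1 and Cadm4, which hold neighbouring cells together, led the rises. Emb gave 65.7, 11.3 and 31.4 in MOSE-E and 8869, 18058 and 9126 in MOSE-L (log2 change of 7.10 ± 0.36 (SE), adjusted p = 1.2e-06). Cadm1 had signals of 57.4, 4.86 and 103 on the MOSE-E arrays and 2356, 3211 and 2860.3 on the MOSE-L arrays (log2 change of 4.88 ± 0.35 (SE), adjusted p = 1.1e-05), and all 4 of its probe sets were called higher. Cadm4 rose from 76.1, 158 and 132 to 1580.4, 809 and 1927 (log2 change of 3.06 ± 0.35 (SE), adjusted p = 0.00025). Nectin3 fell the most, from 1192, 1623 and 1803 to 2.27, 35.1 and 23.9 (log2 change of -4.50 ± 0.29 (SE), adjusted p = 5.3e-06), and Nectin2 was called higher at 1.25. The leukocyte ligands Vcam1 and Icam1 went opposite ways. Vcam1 gave 12470.4, 8825 and 8115 on the MOSE-E arrays and 817, 1050.2 and 2810.2 on the MOSE-L arrays (log2 change of -2.79 ± 0.38 (SE), adjusted p = 0.00064) and Icam1 242, 378 and 318 on the MOSE-E arrays and 646, 2011 and 2325 on the MOSE-L arrays (log2 change of 2.07 ± 0.47 (SE), adjusted p = 0.0097). Icam1 was dimmest on the first late array, which still lay above every early array.

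Of 11 cadherins and protocadherins over the filter and outside the study's tables, 5 were called lower and 1 higher. The 1 higher call was lost without the third MOSE-E or the third MOSE-L array, and 2 were called higher without the first MOSE-L array. Cdh11, a mesenchymal cadherin, gave 4233, 7492 and 8677 in MOSE-E and 73.8, 23.8 and 42.6 in MOSE-L. Cdh1, the epithelial cadherin, gave 949, 782 and 486 in MOSE-E and 6.89, 56.9 and 93.3 in MOSE-L (log2 change of -3.00 ± 0.45 (SE), adjusted p = 0.0012), and Cdh2, the neural cadherin, 4447, 4644 and 3332 in MOSE-E and 1348, 1780.5 and 1487 in MOSE-L (log2 change of -1.39 ± 0.23 (SE), adjusted p = 0.0021). All 3 of these cadherins were lower on every late array than on any early array. Integrins of the study's tables (Itga7, Itgav, Itgb1, Itgb2 and Itgb5) were left out by the choice of members. Of the 5 others over the filter, Itgb8 was called higher, at 794, 399 and 437 in MOSE-E and 1552, 3017 and 3543 in MOSE-L (log2 change of 2.19 ± 0.32 (SE), adjusted p = 0.00096), and the other 4 were not called. Of 50 CD antigens, tetraspanins and mucin-like proteins, 9 (18%) were called higher and 8 (16%) lower, and without the third MOSE-E array 5 and 5. The shares among all genes tested were 8.36% and 7.53%. Cd55, which protects cells from complement, rose from 449, 365 and 679.6 to 5244, 5999 and 7982 (log2 change of 3.58 ± 0.66 (SE), adjusted p = 0.0037). Cd34 gave 1127, 818 and 948 on the MOSE-E arrays and 4.82, 6.92 and 19.9 on the MOSE-L arrays (log2 change of -4.06 ± 1.06 (SE), adjusted p = 0.018). Its call was lost without the second or the third MOSE-E array (adjusted p = 0.05004 and 0.057), although the 2 stages did not overlap.

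Of 25 cytokine and TNF family receptors, 6 were called higher and 2 lower, and the 2 became 1 without any 1 array other than the third MOSE-L array. Lifr and Osmr, receptors for leukemia inhibitory factor and oncostatin M, had signals of 346, 436 and 377 in MOSE-E and 3233, 5144 and 6329 in MOSE-L (log2 change of 3.46 ± 0.39 (SE), adjusted p = 0.00021) and 894, 1223 and 1329.6 in MOSE-E and 2317, 5053 and 10942 in MOSE-L (log2 change of 2.11 ± 0.48 (SE), adjusted p = 0.0098). Il4ra and Il13ra1, which form an interleukin 4 and 13 receptor, rose at log2 changes of 3.06 and 1.71. All 6 receptors called higher were highest on the third MOSE-L array, against 340 of all 633 genes called higher. Amhr2, the receptor for anti-Müllerian hormone, went from 9.38, 3.63 and 14.3 in MOSE-E to 4482, 1538 and 1534 in MOSE-L (log2 change of 5.25 ± 0.46 (SE), adjusted p = 4.7e-05). All 3 of its probe sets were called higher.

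Receptors of the Wnt pathway differed from each other. Of 14, 5 were called higher and 3 lower, and the 3 became 1 without the second MOSE-E array and 2 without any 1 of the other arrays. Lgr4, a receptor for R-spondins, and the frizzled receptor Fzd5 rose, with 1443, 1159 and 828 in MOSE-E and 5328, 6244 and 6887 in MOSE-L (log2 change of 2.40 ± 0.38 (SE), adjusted p = 0.0017) for the former. Fzd8, Fzd6 and Fzd2 were called lower, at -2.62, -1.59 and -1.11. Fzd8 gave 329, 573 and 416 in MOSE-E and 10.5, 14.6 and 71.0 in MOSE-L. Among receptor tyrosine kinases, 3 of 17 were called higher (Flt4, Fgfr1 and Ror1) and 2 lower (Ddr2 and Fgfr2), of which 1 was called without the second MOSE-E array. Of 7 ephrins and Eph receptors, Ephb6 was called higher (log2 change of 2.27 ± 0.45 (SE), adjusted p = 0.0053) and Epha4 lower (log2 change of -1.46 ± 0.34 (SE), adjusted p = 0.012), which was not called without the second MOSE-E array. The receptor tyrosine phosphatases Ptprg, Ptprz1 and Ptprb were called lower and Ptprs and Ptprv higher, of 11. Of the higher calls, 4 were made without the first MOSE-L array and 1 without the second or the third MOSE-L array or without the first or the third MOSE-E array. Neither of the 2 Notch receptors and ligands over the filter was called, and Notch2 gave 1025, 2571 and 2151 on the MOSE-E arrays and 870.5, 2767 and 2281 on the MOSE-L arrays (log2 change -0.01, 95% confidence interval -0.93 to 0.91).

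Of 24 G protein-coupled receptors, 5 were called higher and 3 lower, and the 5 became 2 without the third MOSE-L array and 3 without the first or the third MOSE-E array. Gpr176 fell from 1171, 2478 and 2739 to 31.1, 40.2 and 81.5 (log2 change of -4.38 ± 0.47 (SE), adjusted p = 0.00018). Lpar1, a receptor for lysophosphatidic acid, gave 972, 1864 and 1633 in MOSE-E and 142, 84.9 and 106 in MOSE-L (log2 change of -3.22 ± 0.28 (SE), adjusted p = 4.1e-05). Both were low on every late array. Among 20 ion channels and pumps, 7 (35%) were called higher and 2 (10%) lower, against 8.36% and 7.53% of all genes tested. Aqp5, a water channel, went from 216, 266 and 250.5 to 1816, 4904 and 1581 (log2 change of 3.07 ± 0.62 (SE), adjusted p = 0.0055), and Kcnn4, a calcium-activated potassium channel, from 367, 84.1 and 19.4 to 808, 2194 and 2241 (log2 change of 3.38 ± 0.79 (SE), adjusted p = 0.011). Kcnn4 was brighter on the first MOSE-E array than on the others, and its call was lost without the third MOSE-E array (adjusted p = 0.0503).

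Lipid metabolism held many of the rises in the metabolic class. The cholesterol pathway builds sterol from acetyl-CoA through mevalonate and squalene, and its genes share control by sterol-sensing transcription factors. Of 32 tested genes of cholesterol synthesis and handling, 15 were called higher and 1, Cav1, lower, with a median log2 change of 1.01. Of these, 26 were over 500 in both stages, and 13 of the 26 were called higher. Without 1 array, 12 to 21 were called higher. Sqle, squalene epoxidase, gave 4625, 3026 and 3021 on the MOSE-E arrays and 11600.1, 12759 and 11995 on the MOSE-L arrays (log2 change of 1.78 ± 0.20 (SE), adjusted p = 0.00022). Dhcr7, which makes the last step to cholesterol, gave 674, 524 and 543 on the MOSE-E arrays and 1518, 1647 and 1545 on the MOSE-L arrays (log2 change of 1.37 ± 0.19 (SE), adjusted p = 0.00073). Both were nearly level within MOSE-L. Insig1 and Insig2, which hold the sterol sensor in the endoplasmic reticulum, were called higher at 2.00 and 1.70. Hmgcs1 and Idi1, early enzymes of the pathway, were not called, with 15163, 6192 and 6843 on the MOSE-E arrays and 26339, 20392 and 9502 on the MOSE-L arrays for Hmgcs1. The first MOSE-E array was the brightest of its stage for it, and the stages overlapped. Cyp27a1, a sterol hydroxylase, had the largest change of the group (log2 change of 2.88 ± 0.66 (SE), adjusted p = 0.01), from 29.2, 18.6 and 95.7 to 278, 592 and 1442. Abca1, which exports cholesterol from the cell, was listed with the solute transporters and is not among the 32. It fell from 2394, 2621 and 2050.0 to 154, 216 and 296 (log2 change of -3.17 ± 0.22 (SE), adjusted p = 8.6e-06).

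The promoters of these genes share a short motif, and 3 are shown for that reason. The CCAAT box, bound by the factor NF-Y, was searched as CCAAT on both strands in the 250 bases before each start of transcription in RefSeq (GRCm38.p6). It was present at all 13 genes called higher for which a promoter was at hand, at 11 of the 13 others of the group, and at 37.5% of all 27025 genes with a promoter. A sterol response element, searched as TCACNCCAC, was at none of the 13, at 2 of the 13 others and at 1.23% of all genes. These matches describe letters in a window and not binding. In the lines below, 5′ to 3′ on the strand of the gene, capitals mark the CCAAT box or its reverse complement.
Cyp51 chr5:4104698-4104777 - strand: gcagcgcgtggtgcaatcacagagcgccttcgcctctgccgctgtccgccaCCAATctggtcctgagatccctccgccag
Hsd17b7 chr1:169969206-169969285 - strand: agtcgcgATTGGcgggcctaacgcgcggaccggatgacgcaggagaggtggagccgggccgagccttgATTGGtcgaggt
Insig2 chr1:121332590-121332669 - strand: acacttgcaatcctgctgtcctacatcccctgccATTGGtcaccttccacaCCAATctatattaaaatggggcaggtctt

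Enzymes of fatty acids, phospholipids and sphingolipids followed, with 23 of 105 called higher and 7 lower. Scd1, which desaturates stearate, rose from 7476, 3989 and 2793 to 12561, 15792 and 21600.4 (log2 change of 1.88 ± 0.33 (SE), adjusted p = 0.0027). The fatty acid ligases Acsl3 and Acsl4 and the elongases Elovl5 and Elovl6 were called higher at log2 changes from 1.19 to 1.59. Mgll, which splits monoglycerides, went the other way, with 1427, 1999 and 2384 on the MOSE-E arrays and 88.3, 23.2 and 21.0 on the MOSE-L arrays (log2 change of -4.44 ± 0.47 (SE), adjusted p = 0.00015), and all 3 of its probe sets were called lower. The 7 lower calls were 3 without the second or the third MOSE-E array. Of the 23 genes called higher, 18 were highest on the third MOSE-L array, against 340 of all 633 genes called higher.

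Among 76 genes of redox, glutathione, detoxification, haem and iron, 22 were called higher and none lower. Of the 59 over 500 in both stages, 11 were called higher. The count of 22 was 10 without the second or the third MOSE-E array. Gsta4, a glutathione transferase that acts on lipid peroxidation products, gave 3286, 1177 and 1245 on the MOSE-E arrays and 16696, 12961 and 21402 on the MOSE-L arrays (log2 change of 3.26 ± 0.37 (SE), adjusted p = 0.00022). Mgst1, a membrane-bound transferase, gave 8058, 2820.2 and 2784 on the MOSE-E arrays and 26493, 19786 and 18045 on the MOSE-L arrays (log2 change of 2.39 ± 0.43 (SE), adjusted p = 0.0032). Aldh2, the mitochondrial aldehyde dehydrogenase, rose from 1209, 989.7 and 825 to 7768, 5542 and 6574 (log2 change of 2.66 ± 0.32 (SE), adjusted p = 0.00033). For Gsta4 and Mgst1 the first MOSE-E array was the brightest of its stage, and the stages did not overlap for any of the 3. Blvrb, biliverdin reductase B, rose the most (log2 change of 3.38 ± 0.57 (SE), adjusted p = 0.0023), from 104, 10.3 and 11.2 to 770.3, 364 and 1849. The mitochondrial genes Chchd10 and Ppargc1a, a coactivator of mitochondrial biogenesis, also rose. Ppargc1a gave 8.12, 8.46 and 8.28 in MOSE-E and 535, 721 and 444 in MOSE-L (log2 change of 3.38 ± 0.50 (SE), adjusted p = 0.0011). Of 61 genes of the respiratory chain and mitochondrial carriers, 5 were called higher (8.20%, against 8.36% of all genes tested) and none lower.

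Of 28 genes of glucose uptake, glycolysis and lactate, 3 (10.7%) were called higher and 2 (7.14%) lower, against 8.36% and 7.53% of all genes tested. The 3 became 5 without the first MOSE-L array, and the 2 became 1 without the first or the third MOSE-E array or the third MOSE-L array. Ldhb, the heart-type lactate dehydrogenase subunit, gave 370.5, 402 and 422 on the MOSE-E arrays and 3576, 2118 and 1442 on the MOSE-L arrays (log2 change of 2.34 ± 0.27 (SE), adjusted p = 0.00026), and all 4 of its probe sets were called. Aldoc, the brain-type aldolase, rose from 259, 162 and 184 to 1896, 673 and 1007 (log2 change of 2.20 ± 0.43 (SE), adjusted p = 0.0048). Eno3, the muscle-type enolase, was level at 6068, 6156 and 6296 and fell to 1098, 1378 and 1278 (log2 change of -2.26 ± 0.22 (SE), adjusted p = 8.2e-05). In the citric acid cycle group, 2 of 33 were called higher and 1, Pdha1, lower. The 2 became 4 without the first MOSE-E array and 1 without the second or the third, and none was called lower without the third MOSE-L array. Idh1, the cytosolic isocitrate dehydrogenase, gave 5516, 2601 and 2078 on the MOSE-E arrays and 14283, 10112 and 5427 on the MOSE-L arrays (log2 change of 1.56 ± 0.38 (SE), adjusted p = 0.014). Its stages overlapped, and its adjusted p was 0.057 and 0.066 without the second and without the third MOSE-E array.

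Enzymes that build sugar chains on glycoproteins and glycolipids were listed in 1 group with the pentose phosphate pathway and were not counted alone. Of the 50 genes of that group, 13 were called higher and 2 lower, and the 2 became 1 without the second or the third MOSE-E array. The sialyltransferases St8sia1, St3gal4 and St3gal6 were among the 13. St8sia1, which makes disialogangliosides, had signals of 27.3, 43.2 and 55.5 on the MOSE-E arrays and 690.3, 753 and 457 on the MOSE-L arrays (log2 change of 2.88 ± 0.45 (SE), adjusted p = 0.0015), and St3gal6 rose from 243, 219 and 223 to 1297, 2703 and 1330.4 (log2 change of 2.63 ± 0.31 (SE), adjusted p = 0.0003). St3gal4 gave 432, 249 and 291 in MOSE-E and 1775, 1752 and 1173 in MOSE-L, and none of the 3 overlapped between stages. Among 69 solute transporters, 18 were called higher and 6 lower. The count of 18 was 7 without the third MOSE-L array, and 8 and 7 without the second and the third MOSE-E array. Slco2a1, a prostaglandin transporter, fell from 3807, 2701 and 2155 to 255, 282 and 539 (log2 change of -2.87 ± 0.30 (SE), adjusted p = 0.00014), and Slc4a4, a bicarbonate transporter, from 623, 651 and 529 to 3.86, 122 and 68.9 (log2 change of -2.65 ± 0.40 (SE), adjusted p = 0.0013). Slc7a2, a transporter of cationic amino acids, rose from 297, 349 and 298 to 1464, 2585 and 2223 (log2 change of 2.52 ± 0.22 (SE), adjusted p = 5.0e-05).

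Of 47 genes of nucleotide metabolism, 7 (14.9%) were called lower and 2 (4.3%) higher, against 7.53% and 8.36% of all genes tested. Their median log2 change was -0.47, and without the third MOSE-E array 4 were called lower. Ctps, Cad and Atic, enzymes of pyrimidine and purine synthesis, were among the 7. Ctps gave 3754, 6699 and 6982 on the MOSE-E arrays and 1670.2, 2311 and 1601 on the MOSE-L arrays (log2 change of -1.58 ± 0.28 (SE), adjusted p = 0.003), and Rrm2, a subunit of ribonucleotide reductase, 19013, 17344 and 19142 in MOSE-E and 5782, 8900.4 and 1040.5 in MOSE-L (log2 change of -2.27 ± 0.59 (SE), adjusted p = 0.017). Rrm2 was lowest on the third late array. Of 51 genes of amino acids, one-carbon units and polyamines, 5 (9.80%) were called higher and 4 (7.84%) lower. The shares among all genes tested were 8.36% and 7.53%. The 5 became 2 without the second MOSE-E array and 3 without the third MOSE-E or the third MOSE-L array, and the 4 became 8 without the first MOSE-L array. Odc1 and Srm, which make putrescine and spermidine, were called lower. Odc1 fell from 15761, 14801 and 17579 to 7891, 4645 and 6489.7 (log2 change of -1.36 ± 0.22 (SE), adjusted p = 0.0019) and Srm from 7338, 8121 and 9242 to 2991, 2903 and 2343 (log2 change of -1.57 ± 0.28 (SE), adjusted p = 0.003). Ampd3, an AMP deaminase, was called higher, at 303, 219.8 and 163 in MOSE-E and 817, 2397 and 3684 in MOSE-L (log2 change of 2.87 ± 0.45 (SE), adjusted p = 0.0015), and Aldh6a1, an enzyme of valine breakdown, at 608, 267 and 288 in MOSE-E and 2355, 2075 and 2406 in MOSE-L (log2 change of 2.49 ± 0.41 (SE), adjusted p = 0.0019).

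**Figure D3:**
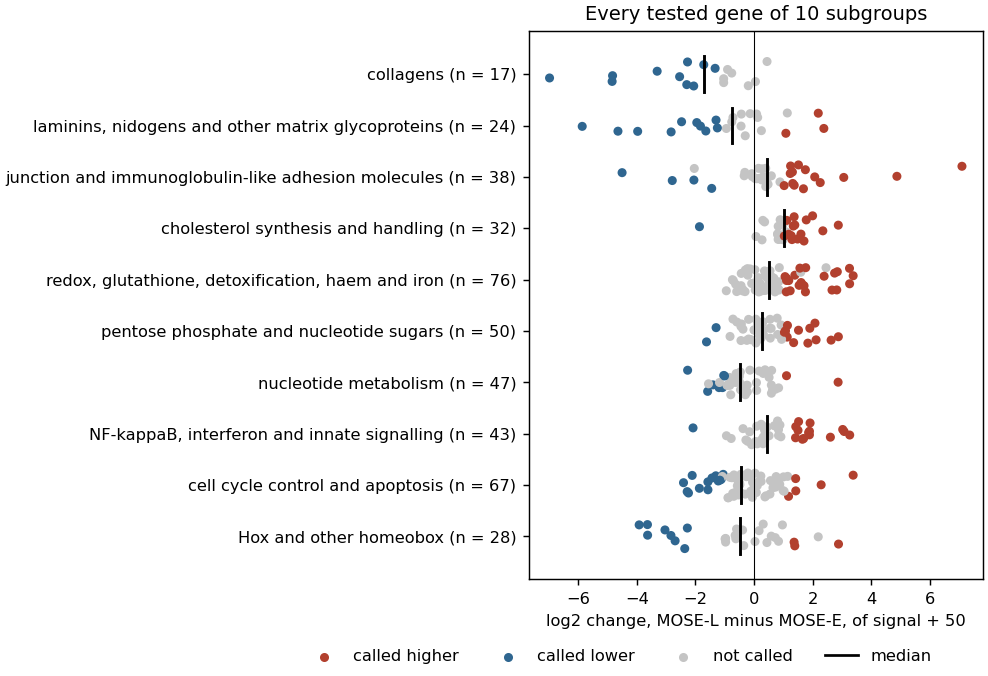
Log2 change (MOSE-L minus MOSE-E, of signal + 50) of every tested gene in 10 of the 54 subgroups, with genes called higher in red, called lower in blue and not called in grey, and a black line at the median. The median was -1.72 for the 17 collagens and 1.01 for the 32 cholesterol genes, against 0.04 for all genes tested.

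Among signalling genes, many induced by interferon were called higher. Interferon induces genes that carry an interferon-stimulated response element, many of which act against viruses. Of 43 genes of NF-kappaB, interferon and innate signalling, 14 (32.6%) were called higher and 1, Ripk3, lower, and 12 to 14 were called higher without 1 array. Without the first MOSE-E array 3 were called lower, and without the third MOSE-L array 2. Of the 43, 26 were over 500 in both stages and 3 of those were called higher, so that most of the 14 had passed the filter through MOSE-L alone. Rtp4, an interferon-induced gene, gave 75.8, 85.9 and 109 on the MOSE-E arrays and 592, 1687 and 2111 on the MOSE-L arrays (log2 change of 3.27 ± 0.43 (SE), adjusted p = 0.00053). Oasl2, a relative of the oligoadenylate synthetases, gave 25.6, 9.0 and 92.0 on the MOSE-E arrays and 313, 680.3 and 1378 on the MOSE-L arrays (log2 change of 3.07 ± 0.61 (SE), adjusted p = 0.0053). Rsad2, an antiviral protein, rose from 122, 92.4 and 149 to 452, 996 and 2048 (log2 change of 2.61 ± 0.45 (SE), adjusted p = 0.0024), and Oas1a from 25.7, 93.7 and 79.6 to 276, 1231 and 1777 (log2 change of 3.03 ± 0.66 (SE), adjusted p = 0.0082). For each of these 4 genes the late arrays lay above the early ones and differed severalfold among themselves. All 14 genes called higher had their highest signal on the third MOSE-L array, against 340 of all 633 genes called higher. That array had the Actb ratio of 1.83, and its part was not tested. Stat2 and Irf9 were called higher at 1.82 and 1.24, and Ddx58 and Ifih1, which sense viral RNA, were not called, with adjusted p = 0.23 and 0.27 by limma.

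Some genes of antigen presentation were called higher too. Of 8, 4 were called higher (Tap1, Tap2, Tapbp and H2-M3) and none lower. Only 4 of the 8 were over 500 in both stages, and 1 of those was called higher. The other 4 had passed the filter through MOSE-L alone. Tap2, which carries peptides into the endoplasmic reticulum, gave 124, 184 and 190.5 on the MOSE-E arrays and 378, 1259.7 and 1668 on the MOSE-L arrays (log2 change of 2.21 ± 0.48 (SE), adjusted p = 0.0082). The class I heavy chain H2-K1 was not called, with 2315, 2948 and 2599 on the MOSE-E arrays and 3092, 4825 and 14655 on the MOSE-L arrays, and the third late array was by far the highest (adjusted p = 0.083 by limma). The H2 genes are close relatives, so that a probe set may also read another of them. The 4 higher calls became 2 without the third MOSE-L array or without any 1 of the MOSE-E arrays, and 7 without the first MOSE-L array.

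The promoters of 4 of the interferon-induced genes are shown because they hold the response element. It was searched as TTTCNNTTTC on both strands in the 250 bases before each RefSeq start. It was at 4 of the 11 genes of the group called higher for which a promoter was at hand, at 3 of the 22 others and at 3.46% of all 27025 genes. Capitals mark the element or its reverse complement, in a run of 80 bases upstream of the start, 5′ to 3′ on the strand of the gene, build GRCm38.p6. In Oas1a a pair of matches overlaps.
Ifit3 chr19:34583372-34583451 + strand: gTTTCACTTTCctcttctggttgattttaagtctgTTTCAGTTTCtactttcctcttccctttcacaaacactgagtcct
Igtp chr11:58199476-58199555 + strand: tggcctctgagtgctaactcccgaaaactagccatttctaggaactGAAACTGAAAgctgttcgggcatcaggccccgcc
Oas1a chr5:120907526-120907605 - strand: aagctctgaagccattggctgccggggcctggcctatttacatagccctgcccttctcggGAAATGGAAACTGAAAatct
Rsad2 chr12:26456528-26456607 - strand: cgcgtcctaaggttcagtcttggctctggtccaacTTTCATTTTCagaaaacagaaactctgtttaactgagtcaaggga
The signal of Ifit3 was 155, 138 and 166 in MOSE-E and 317, 565 and 782 in MOSE-L (log2 change of 1.5 ± 0.33 (SE), adjusted p = 0.009) and that of Igtp 194, 136 and 36.1 in MOSE-E and 285, 612 and 798 in MOSE-L (log2 change of 1.86 ± 0.61 (SE), adjusted p = 0.044), lower on the first MOSE-L array than on the other late arrays.

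Regulators of the cell cycle and of apoptosis were called lower in 13 of 67 and higher in 5, and 10 of the 13 were over 500 in both stages. Those called lower included the mitotic kinases Plk1, Aurka and Aurkb and the survivin gene Birc5. Birc5 gave 7618, 6080.0 and 6524 on the MOSE-E arrays and 2776, 2456 and 242 on the MOSE-L arrays (log2 change of -2.41 ± 0.67 (SE), adjusted p = 0.023), and Plk1 2712, 2762 and 2811 in MOSE-E and 1207, 1417 and 198 in MOSE-L (log2 change of -1.87 ± 0.52 (SE), adjusted p = 0.024). For 9 of the 13 the third MOSE-L array was the lowest, against 293 of all 521 genes called lower. That array had the Actb ratio of 1.83, and its part was not tested. The count of 13 was 9 without that array or without the first MOSE-E array, and 5 and 4 without the second and the third MOSE-E array. The antiproliferative genes Btg1 and Btg2 and the stress-induced Gadd45a were called higher, and the 5 higher calls became 8 without the second MOSE-L array. Btg1 rose from 3789, 1624 and 1637 to 10026, 6994 and 17822 (log2 change of 2.29 ± 0.39 (SE), adjusted p = 0.0023), and Gadd45a from 487, 599 and 252 to 4173, 2460.0 and 11226, highest on the third late array. Gadd45b and Gadd45g, its relatives, were called lower at -1.22 and -2.28.

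**Figure D4:**
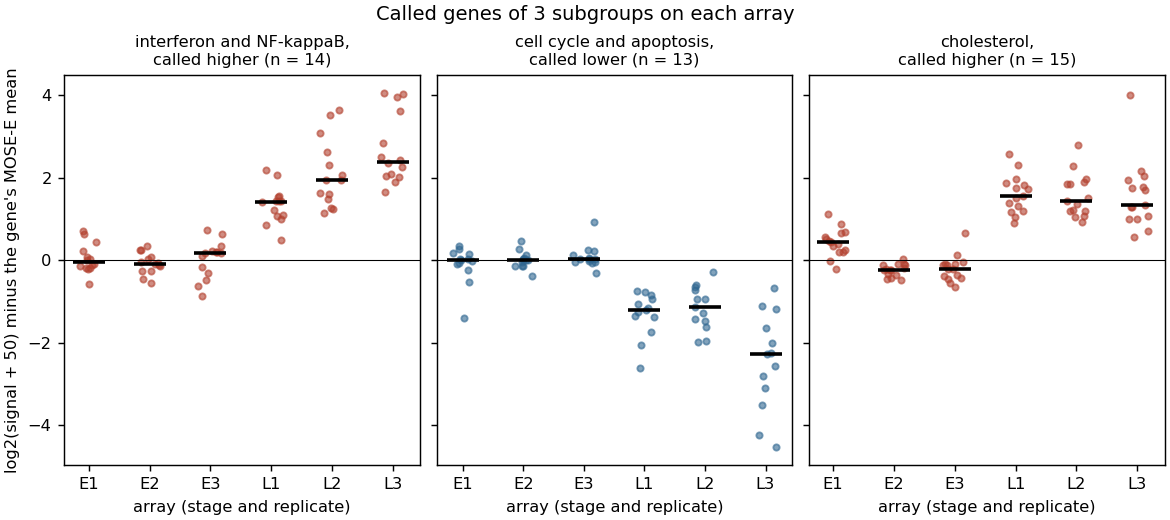
Values of log2(signal + 50) minus the MOSE-E mean of each gene, on each of the 3 MOSE-E (E1 to E3) and 3 MOSE-L (L1 to L3) arrays, for the called genes of 3 subgroups, with black bars at the median. On the third MOSE-L array all 14 interferon and NF-kappaB genes had their highest late value, and 9 of 13 cell cycle and apoptosis genes their lowest, whereas the 15 cholesterol genes were highest on that array in 5. Over all members, that array was highest for 340 of 633 genes called higher and lowest for 293 of 521 called lower.

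Adaptor and kinase genes held single large changes. Adcy7, an adenylyl cyclase, rose from 60.2, 48.7 and 93.5 to 1697, 4276 and 3794 (log2 change of 4.73 ± 0.38 (SE), adjusted p = 2.4e-05), and all 3 of its probe sets were called. In contrast, Adcy1 and 6 other genes of cyclic nucleotide and G protein signalling were called lower. Prkar2a, a regulatory subunit of protein kinase A, was among the 6. Of 40 in the group, 7 (17.5%) were called lower and 4 (10%) higher, against 7.53% and 8.36% of all genes tested. Grb10, an adaptor that restrains the insulin receptor, gave 3122, 3394 and 2782 in MOSE-E and 75.6, 67.0 and 46.4 in MOSE-L. Prkd1, protein kinase D1, fell from 1213, 1654 and 1949.5 to 127, 50.05 and 45.1 (log2 change of -3.77 ± 0.48 (SE), adjusted p = 0.00045). Trib2, a pseudokinase, rose from 215, 103 and 165 to 1291, 1885 and 1179 (log2 change of 2.84 ± 0.27 (SE), adjusted p = 8.6e-05). Ddit4l, an inhibitor of mTOR signalling, fell (log2 change of -2.65 ± 0.29 (SE), adjusted p = 0.00019), whereas its relative Ddit4 and another mTOR inhibitor, Deptor, were called higher at 1.5 and 2.07. Ddit4l gave 1348, 854 and 996 in MOSE-E and 162, 173 and 62.0 in MOSE-L. Vgll3, a cofactor of TEAD, fell from 5196, 8589 and 10332 to 1139.6, 1264 and 1145 (log2 change of -2.66 ± 0.29 (SE), adjusted p = 0.00019). Of 61 genes of RAS, MAP kinases and their feedback regulators, 5 (8.20%) were called higher and 6 (9.84%) lower. The shares among all genes tested were 8.36% and 7.53%, and without 1 array 3 to 7 of the group were called higher. The feedback inhibitors of ERK signalling Dusp6, Spry2 and Spry4 were called higher at 1.20, 1.33 and 1.12. Socs2 and Socs3, feedback inhibitors of cytokine receptors, were called higher at 2.33 and 1.52, and the adjusted p of Socs2 was 0.058 without the second MOSE-E array.

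Homeobox genes held the clearest falls among transcription factors. Of 28, 8 (28.6%) were called lower and 3 (10.7%) higher, against 7.53% and 8.36% of all genes tested. Without 1 array, 8 to 11 were called lower. None of the 11 called genes was over 500 in both stages. Those lower were 6 Hox genes (Hoxa9, Hoxa11, Hoxb3, Hoxb6, Hoxc8 and Hoxc10), Emx2 and Satb1. Hoxa9 gave 2731, 2593 and 2333 on the MOSE-E arrays and 109, 169 and 213 on the MOSE-L arrays (log2 change of -3.63 ± 0.22 (SE), adjusted p = 4.1e-06), and Hoxc10 804, 833 and 867 in MOSE-E and 77.7, 49.7 and 98.8 in MOSE-L (log2 change of -2.84 ± 0.21 (SE), adjusted p = 1.5e-05). Emx2, which is required for the urogenital tract, gave 1352, 1783 and 1822 on the MOSE-E arrays and 60.1, 66.0 and 58.1 on the MOSE-L arrays (log2 change of -3.92 ± 0.24 (SE), adjusted p = 3.9e-06). Each of these had little spread in MOSE-E, and the stages did not overlap. Satb1, a chromatin organiser, fell from 661, 956 and 928 to 12.8, 34.0 and 18.5 (log2 change of -3.64 ± 0.51 (SE), adjusted p = 0.00084). Pax3, Meis1 and Zhx1 were called higher. Pax3, known from neural crest and muscle, gave 68.3, 156 and 17.0 in MOSE-E and 639, 1001 and 853 in MOSE-L (log2 change of 2.88 ± 0.48 (SE), adjusted p = 0.0021), and its 3 probe sets were all called.

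Factors linked to epithelial and mesenchymal state did not move one way. Twist1 fell from 548, 682 and 588 to 69.3, 37.9 and 15.0 (log2 change of -2.89 ± 0.28 (SE), adjusted p = 9.3e-05), whereas Snai2 rose from 1907, 1588 and 757 to 6422, 5465 and 10207 (log2 change of 2.38 ± 0.33 (SE), adjusted p = 0.00072). Twist1 was listed in a wider group of 30 helix-loop-helix, epithelial-mesenchymal and Notch effector genes. Of the 30, 7 (23.3%) were called higher and 5 (16.7%) lower, against 8.36% and 7.53% of all genes tested. Id2, Id3, Mycn and Ahr were the others called lower. The 5 lower calls became 2 to 3 without any 1 of the MOSE-E arrays or without the second or the third MOSE-L array. The 7 higher calls became 4 without the third MOSE-E array. Epas1, a hypoxia-inducible factor, was called higher, at 186, 80.02 and 25.6 in MOSE-E and 950.0, 679 and 444 in MOSE-L (log2 change of 2.43 ± 0.49 (SE), adjusted p = 0.0055). Of 14 nuclear receptors 2 were called higher and none lower. Vdr, the vitamin D receptor, gave 71.3, 123 and 34.0 in MOSE-E and 688, 538 and 359.6 in MOSE-L (log2 change of 2.22 ± 0.35 (SE), adjusted p = 0.0017), and Esr1, the oestrogen receptor alpha, 19.1, 18.7 and 81.9 in MOSE-E and 486, 641 and 405 in MOSE-L (log2 change of 2.69 ± 0.74 (SE), adjusted p = 0.022). The adjusted p of Esr1 was 0.056 to 0.070 without the first or the second MOSE-E array or the second MOSE-L array. The Ets factor Fli1 fell from 737, 425 and 389 to 7.38, 16.01 and 0.92 (log2 change of -3.24 ± 0.47 (SE), adjusted p = 0.001), Sox11 from 328, 1711 and 1479 to 81.1, 239 and 97.0 (log2 change of -2.50 ± 0.64 (SE), adjusted p = 0.017), and Basp1 from 10237, 13206 and 17319 to 2738, 1113 and 1678 (log2 change of -2.91 ± 0.60 (SE), adjusted p = 0.006). The adjusted p of Sox11 was 0.076 and 0.077 without the second and without the third MOSE-E array.

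Of 40 AP-1, immediate early, CREB, ATF and C/EBP genes, 8 (20%) were called higher and 2 (5%), Creb3l1 and Srf, lower. The shares among all genes tested were 8.36% and 7.53%. Of the 8 called higher, 6 were highest on the third MOSE-L array, against 340 of all 633 genes called higher. Without the third MOSE-L array, 5 were called higher. Ddit3, induced by endoplasmic reticulum stress, gave 2274, 921 and 500 on the MOSE-E arrays and 5404, 2985 and 13913 on the MOSE-L arrays (log2 change of 2.51 ± 0.56 (SE), adjusted p = 0.0088). Atf3 gave 368, 545 and 247 in MOSE-E and 726, 702 and 2139 in MOSE-L (log2 change of 1.37 ± 0.42 (SE), adjusted p = 0.035) and Nfe2l2, the regulator of antioxidant genes, 3332, 2743 and 2601 in MOSE-E and 6712, 6603 and 6946 in MOSE-L (log2 change of 1.22 ± 0.17 (SE), adjusted p = 0.0009). Ddit3 and Atf3 were highest on the third late array, whereas the late signals of Nfe2l2 were nearly level.

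Among the largest changes were genes that fell in none of the 5 classes. Mal2, a membrane protein of apical transport, gave 33.9, 49.2 and 11.2 on the MOSE-E arrays and 2704, 1888 and 3548 on the MOSE-L arrays (log2 change of 5.07 ± 0.40 (SE), adjusted p = 2.2e-05). Sorbs2, an adaptor at focal adhesions, rose from 35.6, 13.1 and 33.5 to 1898, 2972 and 1676 (log2 change of 4.82 ± 0.35 (SE), adjusted p = 1.3e-05). Glipr1, Kctd14, Pdzrn3, Tmem267 and AI467606 rose at log2 changes of 4.67, 4.57, 4.24, 4.36 and 5.57, without overlap between stages. Ddx4, an RNA helicase of the germ line, had signals of 6515, 2124 and 1363 on the MOSE-E arrays and 16.6, 4.95 and 15.5 on the MOSE-L arrays (log2 change of -5.45 ± 0.58 (SE), adjusted p = 0.00017). Armcx2 fell from 7509, 9316 and 12075 to 274, 128 and 223 (log2 change of -5.25 ± 0.39 (SE), adjusted p = 1.3e-05). Tagln, an actin-binding protein that the tables used for leaving out genes do not list, had the largest fall of all members, from 8582, 23922 and 32355 to 6.59, 111 and 28.5. The probe sets of Amhr2, Armcx2, Clu, Erdr1 and Kctd14 carry the array's suffix for probes that may also match other transcripts.

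The called genes were not spread evenly over the chromosomes, taken from the RefSeq gene table, and no test was made of this. On chromosome 15, 55 of 320 members (17.2%) were called higher and 5 (1.56%) lower. Amhr2, Mal2, Lifr, Osmr, Aqp5, Vdr, Deptor and Sqle lie there. The median of log2(signal + 50) over the 320 genes, minus the MOSE-E mean, was 0.37 on each of the 3 MOSE-L arrays and at most 0.01 in size on the MOSE-E arrays. On chromosome 19 it was 0.26 to 0.31 on the late arrays, with 12.7% of 291 genes called higher and 4.47% lower, and on chromosome 5 it was 0.22 to 0.28. On chromosome 4 it was -0.27 to -0.16, with 10.6% of 470 genes called lower and 4.47% higher. On chromosome X it was -0.27 to -0.11, with 15.0% of 234 genes called lower and 6.41% higher. Over all members it was 0.03 to 0.04 on the late arrays. Xist, the RNA that coats the inactive X chromosome, was called lower, at 6821, 19489 and 15384 in MOSE-E and 1106, 2148 and 2686 in MOSE-L (log2 change of -2.74 ± 0.39 (SE), adjusted p = 0.00093), and Eif2s3x fell from 12492, 12604 and 13504 to 4738, 3999 and 3161 (log2 change of -1.70 ± 0.25 (SE), adjusted p = 0.00098).

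**Figure D5:**
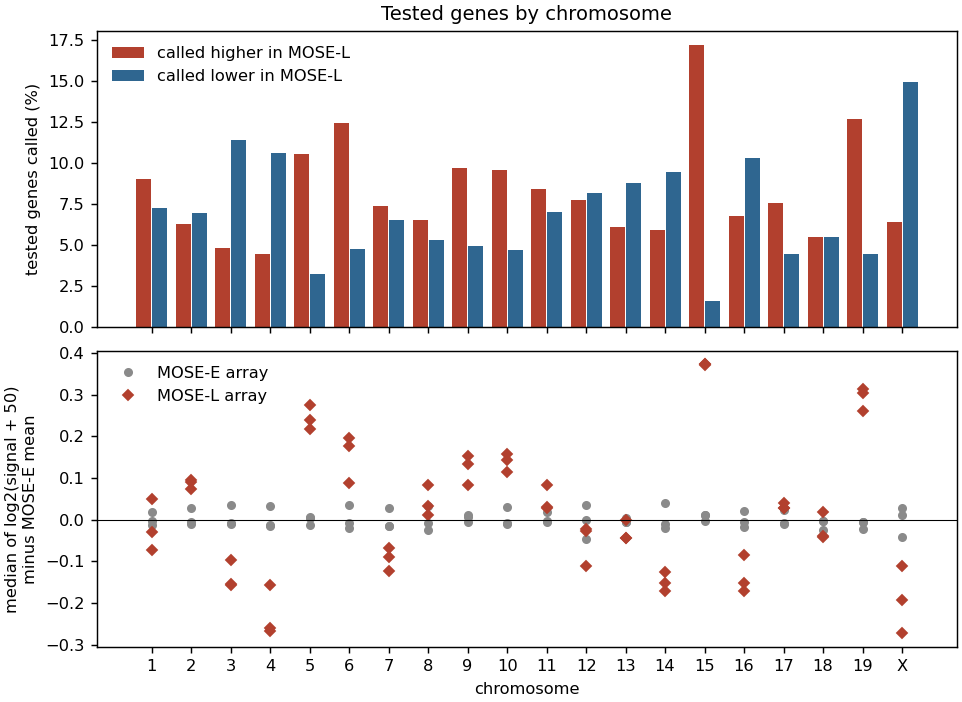
Upper panel, share of members called higher (red) or lower (blue) in MOSE-L on each chromosome, in percent. Lower panel, median over the genes of a chromosome of log2(signal + 50) minus the MOSE-E mean, for each MOSE-E (grey circles) and MOSE-L (red diamonds) array, in which chromosome 15 was at 0.37 on all 3 late arrays and chromosomes 4 and X were below 0 on all 3.

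The arrays of intermediate cells were nearer to MOSE-E than to MOSE-L for most called genes. On the log2 scale, the MOSE-I mean was nearer to the early than to the late mean for 445 of the 633 genes called higher (70.3%) and for 332 of the 521 called lower (63.7%). Cadm1, for instance, had a mean of 100.3 in MOSE-I, close to MOSE-E, and Hoxa9 1822, also on the early side. Nid1 and Cdh11, at 493 and 263, were nearer to MOSE-L. These means share the early and late arrays with the calls and are given as a description.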

How the data were processed

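Affymetrix Mouse Genome 430 2.0 arrays were used with RNA of MOSE cells at 3 stages, with 3 arrays per stage. Per the file headers and the study's methods, the authors made the deposited intensity values, 1 signal per probe set, with MAS 5.0, scaled to a common target on each array. Detection calls and scanner files were not used here. The array held 45101 probe sets, 64 of them controls. A single gene was named by 34958, more than 1 by 932 and none by 9211, and gene IDs paired 34754 with a current symbol. No column of another series was present among the values used. Single passages were the samples, so that the number of arrays limits the precision.

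Signals were taken as log2(signal + 50), since 31.2% of the signals of the 6 arrays compared were under 50. Probe sets over 500 on at least 1 of the 6 arrays (13475) were fitted over all 9 arrays with limma 3.58.1 in R 4.3.3 (lmFit and eBayes with a trend, 6 residual degrees of freedom), with Benjamini-Hochberg adjustment over all of them. Each gene was represented by its brightest probe set. Of 440 called genes with several probe sets, 274 had all of them called the same way, and none had a call in the opposite direction. In data simulated from 13475 probe sets with independent noise, 100 were changed 2-fold and 100 4-fold. Of these, 30% and 83% were called, with 5 false calls. A 2-fold change lies at the size limit itself, and 41% of the 2-fold changes passed the limit on adjusted p. Fewer probe sets changed than were called in the data, and no effect shared by the genes of an array was simulated. The 5 false calls therefore do not carry over to the real arrays.

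Members were sorted into 54 hand-written subgroups in 5 classes (3455 listed genes). Members, classes and subgroups were chosen with earlier results of these data known. Named genes were the 15 largest rises and 15 largest falls among called genes without overlap between stages, the 4 largest of each direction per class, and the largest called gene, or else the brightest, per subgroup. Other genes were named to complete a family. Alternatives were other added constants, other filters, quantile scaling, the methods' t-test, a block for the replicate number and leaving out each array. Promoters came from RefSeq (GRCm38.p6).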

Additional observations from a re-analysis of the deposited data

How the results depend on the processing

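The methods' t-test on the linear signals with a 2-fold ratio called 489 genes higher and 482 lower without adjustment, and 88 and 147 after Benjamini-Hochberg, of which 85 and 139 were among the 633 and 521 called by limma. Under it 61 of the 85 named genes lost their call after adjustment, and 16 did without adjustment. The number of genes whose MOSE-E and MOSE-L arrays do not overlap was 3404, and 5311 without the filter on low signals. Leaving out 1 array in turn gave 452 to 707 genes called higher and 352 to 608 called lower, and no gene reversed its call. It gave 3634 to 4381 genes without overlap between stages, a count that cannot fall when an array is removed. The lowest counts came without the second or the third MOSE-E array. The other constants, filters, scalings and fits kept both counts within 1.5 times and no gene was called in the opposite direction, and 1 named gene lost its call with 200 added in place of 50. The median log2 change of all genes stayed between 0.02 and 0.06 over the settings.

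Same-numbered arrays of MOSE-E and MOSE-L deviated from their stage means together at correlations of 0.41, 0.27 and 0.02, the third array of each stage was best matched by the second of the other, and the labels tie the numbers to no batch, so that they were not taken as pairs. A fit with the replicate number as a block called 630 genes higher and 517 lower, 617 and 510 of them shared.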
